A study of Mus musculus with 15 samples.

Results

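Differentiated MAP adipocytes that had received forskolin for 3 days (FSK3D, 3 libraries) were compared with vehicle-treated cells (3 libraries) across all genes that passed a filter on low counts, 14421 of the 24421 genes in the table. MAP cells are 1 immortalized line of mouse adipocyte progenitors. Every group, vehicle included, had first been driven to differentiate with insulin, isobutylmethylxanthine, dexamethasone and rosiglitazone and then kept in insulin and rosiglitazone. The other groups of the series were the same cells after 4 h (FSK4h) or 1 day (FSK1D) of forskolin or 3 days of rosiglitazone (Rosi3D), with 3 libraries each. They entered the fit and served for direct comparisons with FSK3D. The libraries are numbered through the series, with S1 to S3 for vehicle and S10 to S12 for FSK3D. The sources used here do not give the concentration of forskolin or the harvest time of the vehicle cells, so forskolin and 3 more days in culture cannot be told apart in the vehicle comparison alone. The labels do not state separate cultures for libraries within 1 group. The p-values therefore reflect the variation among libraries, possibly of technical origin.

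Forskolin activates adenylyl cyclase and so raises cAMP, the second messenger through which noradrenaline acts on fat cells. cAMP activates protein kinase A, which phosphorylates lipases and the transcription factor CREB. In brown and beige adipocytes this pathway drives lipolysis, the synthesis of mitochondria and the expression of Ucp1, the uncoupling protein that lets mitochondria release energy as heat. Rosiglitazone takes another route and activates the nuclear receptor PPARγ. The labels describe these treatments as a way to brown the adipocytes.

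Markers of adipocytes were high in all 6 libraries of both groups. Adiponectin (Adipoq), a hormone of fat cells, was at 1449.9, 1626 and 1508 CPM in the vehicle libraries and 1759.6, 1787 and 1791 CPM in the FSK3D libraries, and the lipid droplet protein perilipin 1 (Plin1) at 349, 423 and 400.2 CPM in the vehicle libraries and 478, 507 and 573 CPM in the FSK3D libraries. CPM is the count of a gene relative to the scaled size of its library. The labels call the cell type adipocyte progenitor. Of the progenitor markers, Pdgfra was at 209 ± 2.04 CPM (SD, n = 3) in vehicle and 264 ± 3.16 in FSK3D. Ly6a was also higher in FSK3D and Pdgfrb lower, with values given below, and Cd34 did not pass the test. Dpp4 had 6 counts in all vehicle libraries together and 0 in FSK3D. Pi16 had 11 counts in vehicle and 19 in FSK3D, and Bst1 had 14 and 20. Markers of leukocytes were nearly absent, with 4 counts of Ptprc over the vehicle libraries and 0 over FSK3D, and 1 and 0 counts of Adgre1. Of 24 macrophage and leukocyte markers 3 passed the filter, with a summed level of 4.17 to 4.66 CPM in vehicle and 4.89 to 5.35 CPM in FSK3D. Of 17 endothelial markers 7 were tested, of which 1 was called higher and 2 lower in FSK3D, with a summed level of 114 to 122 CPM in vehicle and 83.9 to 83.98 CPM in FSK3D. Most of that level came from endoglin (Eng), at 102.4 ± 2.69 CPM in vehicle and 67.8 ± 0.559 in FSK3D, while Cdh5 and Tie1 had 2 counts each over vehicle and 0 over FSK3D. Of 14 mesothelial and epithelial markers 3 were tested, with 1 higher and 2 lower and a summed level of 91.2 to 96.5 CPM in vehicle and 37.1 to 38.9 CPM in FSK3D, mostly from keratin 19 (Krt19, 87.2 ± 2.84 and 33.4 ± 0.356 CPM). Of 43 skeletal and cardiac muscle genes 16 were tested, and Ckm had 0 counts in both groups. The summed level of the 16 was 79.9 to 89.01 CPM in vehicle and 97.9 to 109.8 CPM in FSK3D. This list holds Mb, its largest rise (log2 fold change 4.15), described below. The median log2 fold change of the 16 was 0.01, so the higher sum does not describe the list as a whole. The part of these markers in the results was not tested.

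Against vehicle, 3740 genes were higher and 3888 lower in FSK3D at an adjusted p under 0.05 in edgeR's quasi-likelihood test with Benjamini-Hochberg adjustment, which is what "called", "rose" and "fell" mean throughout. These were 25.9% and 27.0% of the genes tested, and 52.9% were called in one direction or the other. The counts of list members given below stand against these shares. A list with shares near them is not set apart from all genes. Most changes were small: 84.4% of the called genes differed by less than 2-fold, and the median size of a called change was 0.46 on the log2 scale. At least 2-fold, 632 genes (4.38%) were higher and 555 (3.85%) lower, and at least 4-fold 135 and 111. The median over all tested genes was 0.0088. Of the 14421 genes tested, all 3 FSK3D libraries lay above all 3 vehicle libraries for 4192 and below them for 4239. A lack of overlap between the groups was thus shared by most genes tested. Total counts were 26388586 to 31089519 in vehicle and 14056200 (S11) to 31079564 (S12) in FSK3D. The precursor of ribosomal RNA took 8.498% to 8.574% of the counts in vehicle and 4.15% to 5.79% in FSK3D. Because the RNA is from bulk cultures, fewer cells of a kind and less RNA per cell cannot be told apart.

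**Figure D1:**
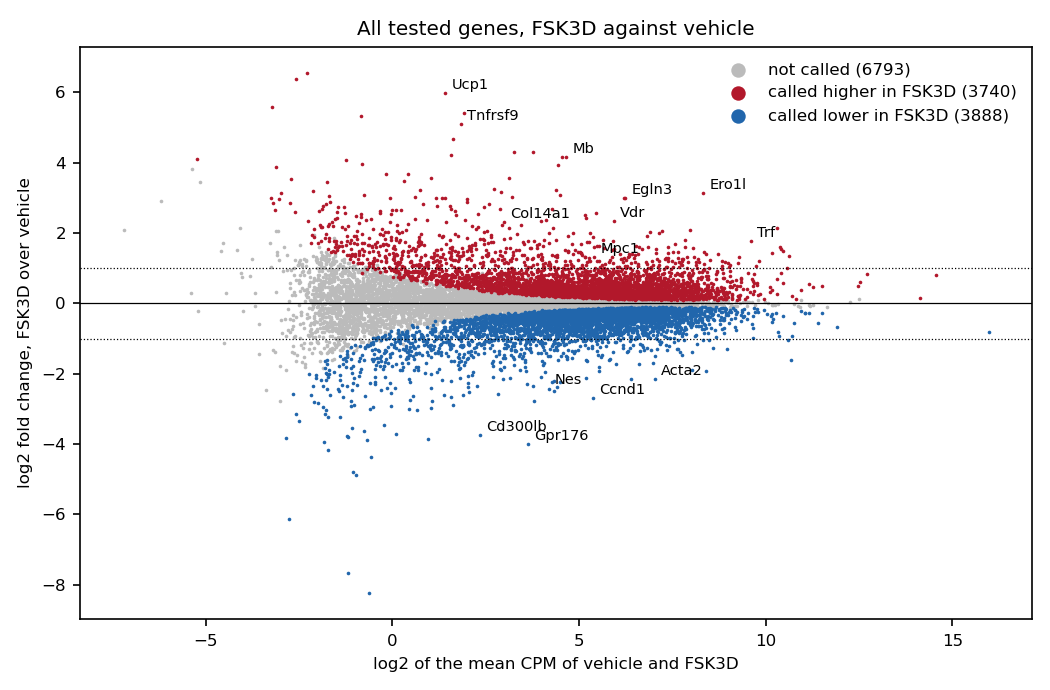
Each point is 1 tested gene, placed by the log2 of its mean CPM over the vehicle and FSK3D means (x axis) and its log2 fold change in FSK3D over vehicle (y axis); 1 gene at 0 in both groups is not drawn. Dotted lines mark 2-fold. The 3740 genes called higher (red) and 3888 called lower (blue) lie mostly within 2-fold, and Ucp1, Tnfrsf9, Mb, Gpr176 and Cd300lb stand far outside it.

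The largest rises were taken among called protein-coding genes of at least 5 CPM. The rule also required that the libraries of FSK3D and vehicle did not overlap. Ucp1 (chromosome 8, 83290352 to 83298452, plus strand) was at 0.0617, 0.164 and 0 CPM in the vehicle libraries and 4.24, 6.10 and 5.41 CPM in the FSK3D libraries. Its log2 fold change was 5.99 ± 0.37, adjusted p = 2.29e-15. The vehicle libraries held 7 counts in all and FSK3D 363, and the ratio was 66.2 (exact binomial 95% interval 22.3 to 216), where the interval covers counting error only. Ucp1 in FSK3D was below its level at 4 h (8.42 ± 0.648 CPM) and above that at 1 day (1.15 ± 0.0834 CPM) and in Rosi3D (0.827 ± 0.313 CPM). The direct log2 differences from those groups were -0.69 ± 0.20, adjusted p = 0.00219, 2.17 ± 0.24, adjusted p = 2.12e-09 and 2.57 ± 0.24, adjusted p = 7.99e-11 in edgeR.

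Tnfrsf9 (chromosome 4, 150914562 to 150946102, plus strand), a member of the TNF receptor family also used to mark beige fat, was at 0.123, 0.328 and 0.147 CPM in the vehicle libraries and 8.08, 6.85 and 5.95 CPM in the FSK3D libraries (5.09 ± 0.28, adjusted p = 6.94e-17). At 1 day it stood at 11.98 ± 1.06 CPM (direct log2 difference -0.79 ± 0.17, adjusted p = 0.000139). Slc25a34 (chromosome 4, 141618824 to 141623821, minus strand), a member of the mitochondrial carrier family, was at 0.895, 1.64 and 1.39 CPM in the vehicle libraries and 23.9, 25.2 and 28.3 CPM in the FSK3D libraries (4.31 ± 0.18, adjusted p = 3.35e-17). Rosi3D reached 26.1 ± 2.01 CPM for this carrier, a direct log2 difference of -0.01 ± 0.13, while FSK1D stood at 5.96 ± 0.476 CPM.

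Myoglobin, Mb (chromosome 15, 77015487 to 77050670, minus strand), the oxygen-binding heme protein of muscle and also found in brown fat, was at 1.67, 2.66 and 3.82 CPM in the vehicle libraries and 41.2, 49.1 and 52.2 CPM in the FSK3D libraries. The change was 4.15 ± 0.20, adjusted p = 4.64e-12, and all FSK3D libraries were at least 10 times the highest vehicle library. In the annotation exons of Mb overlap those of Apol6, so its counts are uncertain where the counting could split reads. The same holds for other genes named here whose exons overlap those of a neighbour, namely Uqcrc2 (Pdzd9), Mterf4 (Sned1), Polg (Fanci), Aldh6a1 (Bbof1), Fdft1 (Ctsb), Gys1 (Ruvbl2), Adcy3 (Cenpo), Rb1 (Rcbtb2), Pdia3 (Catsper2), Csf1r (Hmgxb3), Chrd (Thpo) and Ctsa (Neurl2 and Pltp). Ero1l (chromosome 14, 45283087 to 45318771, minus strand) is an oxidase that forms disulfide bonds in the endoplasmic reticulum. Its level was 59.9, 69.8 and 67.6 CPM in the vehicle libraries and 553, 568 and 603 CPM in the FSK3D libraries (3.13 ± 0.082, adjusted p = 1.46e-15). Ffar4, the receptor for long-chain fatty acids known as GPR120, was at 3.12, 4.005 and 5.06 CPM in the vehicle libraries and 34.1, 34.9 and 44.2 CPM in the FSK3D libraries (3.24 ± 0.16). Adtrp, which hydrolyses fatty acid esters of hydroxy fatty acids, rose by 3.25 ± 0.18 and the G protein-coupled receptor Gpr35 by 3.56 ± 0.14.

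Among secreted products, the lubricating proteoglycan Prg4, whose exons overlap those of Tpr, rose by 4.17 ± 0.14, the semaphorin Sema3g by 3.94 ± 0.25, the matrix protein Spon2 by 3.08 ± 0.11 and the siderophore-binding Lcn2 by 4.21 ± 0.32. Lcn2 was at 0.0617, 0.525 and 0.367 CPM in the vehicle libraries and 4.45, 4.59 and 7.86 CPM in the FSK3D libraries, far under its 62.96 ± 3.47 CPM at 1 day, and its direct log2 difference from FSK1D was -3.43 ± 0.17, adjusted p = 2.74e-12. Prg4 was also lower than at 1 day (-2.16 ± 0.093, adjusted p = 3.47e-13), while Sema3g (0.84 ± 0.20, adjusted p = 0.00349) and Spon2 (0.70 ± 0.093, adjusted p = 1.05e-07) were higher. The cytochrome P450 gene Cyp2ab1 (4.67 ± 0.31), the keratin Krt79 (3.18 ± 0.16) and Catsperg2 (3.01 ± 0.17), named for a subunit of the sperm calcium channel, completed the 15 largest rises. None of these 3 differed in the test from FSK1D (-0.43 ± 0.20, adjusted p = 0.0638, 0.21 ± 0.13, adjusted p = 0.179 and -0.07 ± 0.14, adjusted p = 0.72 in edgeR).

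The largest falls were taken by the same rule. Gpr176 (chromosome 2, 118277110 to 118373419, minus strand), an orphan G protein-coupled receptor, was at 25.7, 22.6 and 20.99 CPM in the vehicle libraries and 1.06, 1.78 and 1.56 CPM in the FSK3D libraries (-4.01 ± 0.18, adjusted p = 2.27e-17). FSK1D still stood at 19.01 ± 4.52 CPM (direct log2 difference -3.72 ± 0.18, adjusted p = 1.66e-16). Cyclin D1, Ccnd1 (chromosome 7, 144929931 to 144939925, minus strand), which drives cells through G1 and whose exons overlap those of LTO1, was at 68.8, 69.4 and 75.7 CPM in the vehicle libraries and 12.03, 9.32 and 11.04 CPM in the FSK3D libraries (-2.70 ± 0.10, adjusted p = 1.09e-19). Its level at 1 day was already 11.8 ± 0.694 CPM. Rspo2, a secreted enhancer of Wnt signalling, was at 25.3, 22.8 and 24.5 CPM in the vehicle libraries and 3.87, 3.70 and 3.09 CPM in the FSK3D libraries (-2.78 ± 0.17, adjusted p = 4.75e-15). Rspo2 was above its level at 4 h (0.977 ± 0.433 CPM), with a direct log2 difference of 1.78 ± 0.23, adjusted p = 5.91e-08. The intermediate filament protein nestin (Nes), a marker of progenitors, was at 32.4, 28.2 and 31.7 CPM in the vehicle libraries and 4.89, 5.55 and 6.58 CPM in the FSK3D libraries (-2.42 ± 0.11, adjusted p = 9.43e-19), and Lrp8, a receptor for apolipoprotein E and reelin, at 36.1, 34.7 and 36.7 CPM in the vehicle libraries and 8.08, 7.47 and 5.44 CPM in the FSK3D libraries (-2.38 ± 0.11, adjusted p = 5.2e-19). For all of these the FSK3D libraries lay below every vehicle library, by the rule that chose them.

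The other large falls were in the immune-type receptor Cd300lb (-3.75 ± 0.33), the microtubule-binding Mtus2 (-2.89 ± 0.35), the MAP kinase phosphatase Dusp9 (-2.66 ± 0.22), the bHLH-PAS factor Arnt2 (-2.61 ± 0.23), the adhesion receptor Adgrg6 (-2.58 ± 0.22) and the actin nucleator Spire2 (-2.53 ± 0.23). Phospholipase Plcg2 (-2.38 ± 0.25), the Na,K-ATPase beta subunit Atp1b1 (-2.36 ± 0.18) and Pawr, which promotes apoptosis (-2.36 ± 0.15), followed. Atp1b1 shares exons with Nme7. The transgelin gene Tagln is described with the smooth muscle genes.

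Of the thermogenic genes, which serve heat production in brown and beige fat, 14 of 20 tested members rose and 1 fell, with a median log2 fold change of 0.72, beside 0.0088 over all genes tested. Elovl3, a fatty acid elongase of brown fat whose exons overlap those of Pitx3, was at 0.432, 0.197 and 0.294 CPM in the vehicle libraries and 4.08, 4.18 and 3.15 CPM in the FSK3D libraries (3.58 ± 0.29, adjusted p = 1.48e-12). Otop1, a proton channel, was at 0.741, 0.689 and 0.220 CPM in the vehicle libraries and 4.45, 4.11 and 4.96 CPM in the FSK3D libraries (3.00 ± 0.27, adjusted p = 2.35e-11). In both, all 3 FSK3D libraries were above all vehicle libraries. The cytochrome c oxidase isoform Cox7a1 rose from 2.68 ± 0.229 to 12.6 ± 1.45 CPM (2.24 ± 0.18, adjusted p = 1.83e-11). The single fall was in the beta-3 adrenergic receptor, Adrb3, the receptor upstream of cAMP in fat cells, at 114, 137 and 120.4 CPM in the vehicle libraries and 60.6, 68.3 and 71.03 CPM in the FSK3D libraries (-0.89 ± 0.066, adjusted p = 2.07e-12). Prdm16, a regulator of brown fat identity, missed the test (0.24), as did Cpt1b (-0.80) and Fabp3 (-0.59). Dio2, the deiodinase that makes active thyroid hormone in brown fat, had 4 counts over vehicle and 20 over FSK3D and was not tested.

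Genes for the respiratory chain were higher almost throughout, by modest amounts. Among complex I subunits 32 of 35 tested members rose and 0 fell, with a median log2 fold change of 0.42, with a range of 0.15 to 0.79. In the list of complexes II to V, with cytochrome c, 34 of 40 tested members rose and 1 fell, with a median log2 fold change of 0.43. The summed level of the 35 complex I genes was 1629 to 1782 CPM in vehicle and 2319 to 2459 CPM in FSK3D, and that of the 40 other subunits 5693 to 6244 CPM in vehicle and 7938 to 8640.2 CPM in FSK3D, so that neither overlapped between groups. Cytochrome c (Cycs), the electron carrier between complexes III and IV, was at 20.7, 24.3 and 22.8 CPM in the vehicle libraries and 50.01, 50.6 and 53.2 CPM in the FSK3D libraries (1.18 ± 0.062, adjusted p = 3.04e-17). Uqcrfs1, the Rieske protein of complex III, rose by 0.73 ± 0.061, Uqcrc2, a core subunit of the same complex, by 0.73 ± 0.057 and Ndufv3 of complex I by 0.79 ± 0.088. The exception that fell was Atp5g1 (-0.37 ± 0.086), 1 of the genes for subunit c of ATP synthase. Coenzyme Q synthesis had 8 of 11 members higher and 0 lower, led by the methyltransferase Coq3 (1.00 ± 0.088). For this list, and for the complex I, fatty acid oxidation, branched-chain and histone lists, the direction with 0 calls in edgeR also had 0 members at an unadjusted p under 0.05 and 0 calls in DESeq2.

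The Cycs promoter is printed because it holds motifs of both CREB and NRF1, a factor known for driving respiratory genes. It is the RefSeq sequence of GRCm38.p6 from 250 bases before to 50 after the start (chr6:50566520-50566819, minus strand), with the full cAMP response element TGACGTCA and the reverse complement of the NRF1 letters GCGCATGCG in capitals.
Cycs: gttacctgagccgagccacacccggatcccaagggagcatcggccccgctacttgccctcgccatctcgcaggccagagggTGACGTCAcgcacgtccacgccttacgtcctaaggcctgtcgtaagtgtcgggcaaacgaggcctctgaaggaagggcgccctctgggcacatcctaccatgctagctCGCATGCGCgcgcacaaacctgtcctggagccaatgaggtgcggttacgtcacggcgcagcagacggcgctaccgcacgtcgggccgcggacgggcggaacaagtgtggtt
Of 28 promoters of complexes II to V, 7 held the NRF1 letters on either strand, against 3.64% of 8619 promoters of tested genes. The cAMP response element stood in 2 of the 28 (7.14%) and in 3.25% of all. Such a match is a description of the letters, not a bound site.

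Other mitochondrial lists had smaller medians. Of mitochondrial ribosomal proteins 29 of 77 tested members rose and 3 fell, with a median log2 fold change of 0.14. In protein import and folding 22 of 38 tested members rose and 2 fell, with a median log2 fold change of 0.25. There the matrix chaperone Hspa9 was at 493, 509 and 470.1 CPM in the vehicle libraries and 798, 794 and 829 CPM in the FSK3D libraries (0.72 ± 0.047), the protease Lonp1 rose by 0.81 ± 0.049 and the cochaperone Dnaja3 by 0.82 ± 0.056. In the list for mitochondrial DNA and its transcription 8 of 19 tested members rose and 3 fell, with a median log2 fold change of 0.20. The DNA polymerase Polg (-0.25 ± 0.058) and the transcription factor gene Nrf1 (-0.24 ± 0.061) fell, and Mterf4 (0.80 ± 0.075), whose protein acts in assembly of the mitochondrial ribosome, rose.

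Genes of fuel oxidation were higher as well, with larger medians than the respiratory chain lists. In the TCA cycle and pyruvate entry 20 of 21 tested members rose and 1 fell, with a median log2 fold change of 0.67. Mpc1, a subunit of the mitochondrial pyruvate carrier, was at 21.5, 27.4 and 23.7 CPM in the vehicle libraries and 57.8, 58.6 and 63.6 CPM in the FSK3D libraries (1.31 ± 0.080, adjusted p = 7.28e-15), and its partner Mpc2 rose by 0.99 ± 0.087. Idh3a, of the NAD-dependent isocitrate dehydrogenase, was at 261, 306 and 307 CPM in the vehicle libraries and 649, 655 and 688 CPM in the FSK3D libraries (1.19 ± 0.056, adjusted p = 7.21e-17), while Idh2, the NADP-dependent enzyme, fell slightly (-0.19 ± 0.046). In fatty acid oxidation 25 of 28 tested members rose and 0 fell, with a median log2 fold change of 0.75. The acyl-CoA dehydrogenases Acadl (1.32 ± 0.076) and Acadm (1.09 ± 0.095), the carnitine transferase Cpt2 (1.03 ± 0.057) and Decr1, needed for unsaturated fatty acids (1.28 ± 0.057), were the leading members. Cpt1a, which controls entry of fatty acids, did not pass the test (0.10). Peroxisomal genes gave 27 of 34 members higher and 1 lower, with a median of 0.47. Among the rises were Scp2 (1.47 ± 0.057) and catalase Cat (1.03 ± 0.053). The fall was in Abcd2 (-0.15 ± 0.062), a call lost under several alternatives, DESeq2 among them. The 27 include Pmp22 (0.44 ± 0.051), a myelin protein gene that does not belong with the peroxisome. The peroxisomal thiolase Acaa1b rose by 3.01 ± 0.075, a value that its close copy Acaa1a and the overlapping Dlec1 make uncertain.

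Genes for the breakdown of branched-chain amino acids were nearly all higher. Here 20 of 22 tested members rose and 0 fell, with a median log2 fold change of 0.73. The other 2 stood at 0.16 (Hsd17b10) and -0.01 (Slc25a44). The 20 include regulators of the pathway, among them Klf15, the kinase Bckdk (0.36 ± 0.054) and the phosphatase Ppm1k (1.06 ± 0.084). Bcat2, the transaminase of the first step, was at 30.4, 39.1 and 31.96 CPM in the vehicle libraries and 82.1, 81.2 and 89.6 CPM in the FSK3D libraries (1.32 ± 0.090, adjusted p = 5.79e-11). Dbt (1.08 ± 0.077), of the branched-chain dehydrogenase complex, rose, as did Aldh6a1 (1.14 ± 0.077) further down the valine branch. Klf15, a transcription factor known to control this pathway, was at 11.7, 15.1 and 14.3 CPM in the vehicle libraries and 33.00, 38.2 and 43.2 CPM in the FSK3D libraries (1.48 ± 0.11, adjusted p = 8.84e-13). Klf15 had been at 3.60 ± 0.207 CPM at 4 h and was at 13.1 ± 1.76 CPM in Rosi3D, with direct log2 differences of 3.41 ± 0.13, adjusted p = 1.98e-20 and 1.55 ± 0.11, adjusted p = 4.34e-13.

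**Figure D2:**
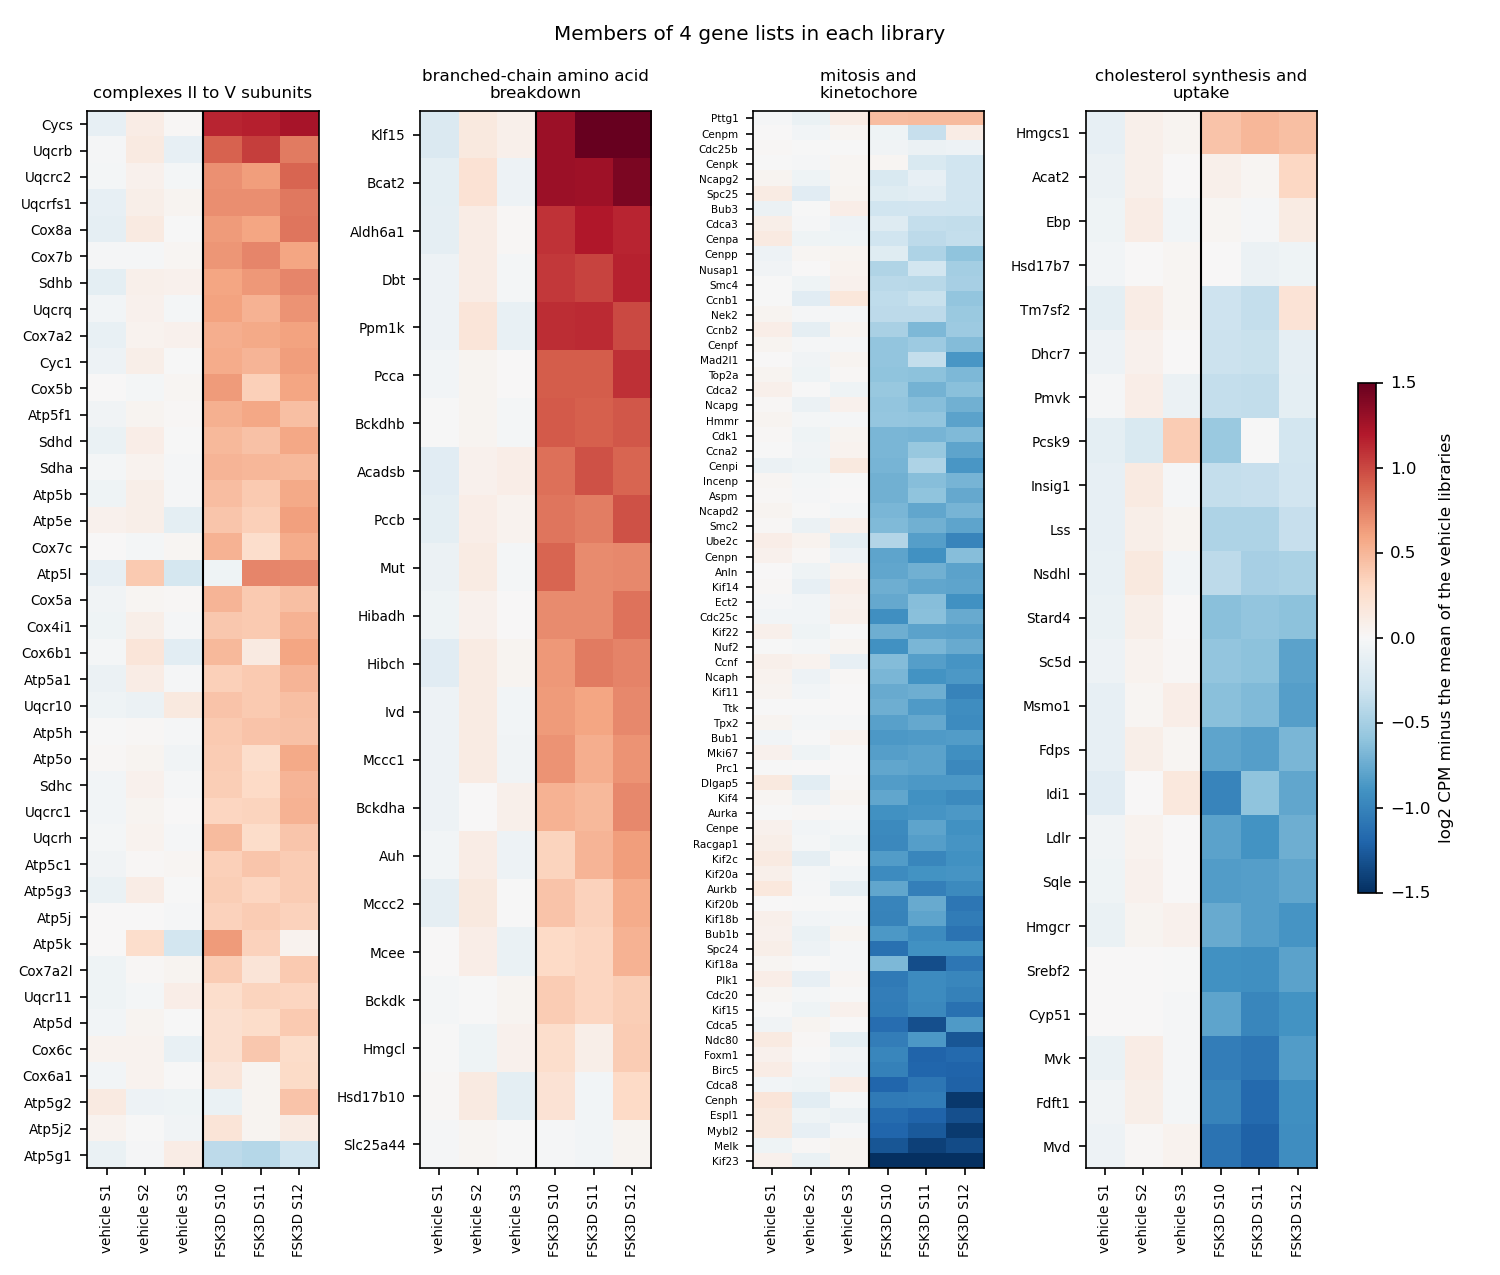
Rows are tested members of 4 lists, without any gene not reported here, sorted by log2 fold change, and each column is 1 library; the colour is log2 CPM minus the mean log2 CPM of the vehicle libraries, from blue (-1.5 or less) to red (1.5 or more). The 3 FSK3D columns are red for nearly all respiratory and branched-chain genes and blue for nearly all mitosis and most cholesterol genes, and the 3 vehicle columns stay near white.

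Genes of the mature adipocyte and of lipid storage were mostly higher. In that list 33 of 37 tested members rose and 3 fell, with a median log2 fold change of 0.83. Its summed level was 19794 to 22486 CPM in vehicle and 33284 to 35242 CPM in FSK3D. The lipid droplet protein Plin5 was at 2.56, 4.76 and 5.14 CPM in the vehicle libraries and 15.8, 15.8 and 16.6 CPM in the FSK3D libraries (1.97 ± 0.17, adjusted p = 1.03e-08), the triglyceride synthase Dgat2 rose by 1.58 ± 0.10 and the lipid droplet protein Cidea by 1.59 ± 0.21. Lipoprotein lipase (Lpl) was at 4479, 5193 and 4926 CPM in the vehicle libraries and 8799.5, 8735 and 8464 CPM in the FSK3D libraries (0.83 ± 0.054, adjusted p = 2.47e-14). The nuclear receptor Pparg rose by 0.58 ± 0.071 and Adipoq by 0.22 ± 0.046. Besides Adrb3, the genes that fell were leptin and Car3. Leptin (Lep), the satiety hormone, had 44 counts over vehicle and 6 over FSK3D, a ratio of 0.174 with an interval of 0.0334 to 0.58 (log2 -2.43 ± 0.78, adjusted p = 0.00961). It was not called without FSK3D S12, the library with no count of it (-1.64, adjusted p = 0.0965). Car3, a carbonic anhydrase of fat, changed by -0.44 ± 0.13, adjusted p = 0.0167, and its call was lost without vehicle S2 (-0.40, adjusted p = 0.0563) or FSK3D S12 (-0.41, adjusted p = 0.0583).

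Lipid synthesis split into branches. In de novo lipogenesis 13 of 20 tested members rose and 4 fell, with a median log2 fold change of 0.36. The stearoyl-CoA desaturase Scd1 was at 16216, 18797 and 17669.7 CPM in the vehicle libraries and 30218, 29958 and 31667 CPM in the FSK3D libraries (0.80 ± 0.052, adjusted p = 5.56e-15). Acacb, an acetyl-CoA carboxylase, rose by 0.77 ± 0.11 and the pentose phosphate enzyme Taldo1 by 0.76 ± 0.082, but fatty acid synthase (Fasn) did not pass the test (0.05). The 4 falls were in the desaturases of polyunsaturated fats, Fads2 and Fads1 (-0.85 ± 0.053), the elongase Elovl6 (-0.86 ± 0.062) and ATP citrate lyase, Acly (-0.20 ± 0.050). Fads2 was at 116, 115 and 104 CPM in the vehicle libraries and 51.5, 55.1 and 60.5 CPM in the FSK3D libraries, with no overlap.

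Cholesterol synthesis and uptake fell along most of its length. In that list 2 of 25 tested members rose and 19 fell, with a median log2 fold change of -0.67. Mvd, a decarboxylase of the mevalonate pathway, was at 44.5, 47.6 and 48.8 CPM in the vehicle libraries and 21.8, 20.2 and 24.6 CPM in the FSK3D libraries (-1.07 ± 0.075, adjusted p = 4.66e-14). All FSK3D libraries lay below all vehicle libraries. Mvk (-0.98 ± 0.085), a kinase of the same pathway, and squalene synthase Fdft1 (-1.02 ± 0.074) fell with it. Hmgcs1, the cytosolic HMG-CoA synthase, went the other way, at 213, 244 and 239 CPM in the vehicle libraries and 312, 326 and 316 CPM in the FSK3D libraries (0.46 ± 0.048, adjusted p = 6.87e-10). The other rise, in Acat2 (0.15 ± 0.063), was not called without vehicle S1 (0.12, adjusted p = 0.161), vehicle S3 (0.17, adjusted p = 0.0549) or FSK3D S12 (0.06, adjusted p = 0.458), nor with the 6 libraries alone (0.15, adjusted p = 0.0785) or library size alone (0.14, adjusted p = 0.0572). The Mvk promoter is printed as an example of the CCAAT boxes, the letters bound by NF-Y, that 93.3% of 15 promoters of this list held, against 39.00% of all tested genes (GRCm38.p6, chr5:114444019-114444318, plus strand, CCAAT on either strand in capitals).
Mvk: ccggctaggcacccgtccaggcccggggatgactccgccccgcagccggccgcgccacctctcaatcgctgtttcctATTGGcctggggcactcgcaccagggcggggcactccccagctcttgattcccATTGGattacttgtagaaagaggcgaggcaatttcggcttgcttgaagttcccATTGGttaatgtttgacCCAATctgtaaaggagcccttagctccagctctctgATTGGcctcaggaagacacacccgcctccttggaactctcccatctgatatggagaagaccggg

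Glycolysis and hypoxia genes had the highest medians of the 52 lists. In glycolysis 18 of 23 tested members rose and 2 fell, with a median log2 fold change of 0.95. Pyruvate dehydrogenase kinase Pdk1, which diverts pyruvate from oxidation and stands in both lists, was at 85.1, 100.9 and 104 CPM in the vehicle libraries and 385, 427 and 416 CPM in the FSK3D libraries (2.08 ± 0.062, adjusted p = 2.23e-20). Aldoc (2.21 ± 0.19), Pgk1 (1.47 ± 0.051) and the lactate carrier Slc16a1 (1.41 ± 0.049) rose. Eno2 and Hk1 were the called falls, at -0.54 and -0.12, and Eno2 was not called without vehicle S1 (-0.48, adjusted p = 0.0718), vehicle S2 (-0.43, adjusted p = 0.0989), FSK3D S11 (-0.40, adjusted p = 0.105) or FSK3D S12 (-0.43, adjusted p = 0.106). Hk1 was lost without vehicle S1 (-0.07, adjusted p = 0.298), vehicle S3 (-0.12, adjusted p = 0.0707) or FSK3D S11 (-0.07, adjusted p = 0.269). The Hk1 call was also lost with the 6 libraries alone (-0.12, adjusted p = 0.0528), RLE factors (-0.11, adjusted p = 0.051), no filter on low counts (-0.11, adjusted p = 0.084), a filter at 1 CPM (-0.10, adjusted p = 0.0665), halved counts (-0.10, adjusted p = 0.0704) and DESeq2 (-0.11, adjusted p = 0.053). Among targets of hypoxia-inducible factors 17 of 20 tested members rose and 1 fell, with a median log2 fold change of 1.14. Besides Ero1l, the prolyl hydroxylase Egln3 was at 11.6, 22.2 and 17.3 CPM in the vehicle libraries and 127, 132 and 144 CPM in the FSK3D libraries (2.99 ± 0.21, adjusted p = 2.56e-07), and the mitophagy receptor Bnip3 (1.67 ± 0.084) and Higd1a (1.68 ± 0.081) rose. The vasodilator peptide Adm was the fall, at 19.4, 16.6 and 18.8 CPM in the vehicle libraries and 4.65, 5.48 and 5.60 CPM in the FSK3D libraries (-1.80 ± 0.13, adjusted p = 1.88e-13).

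Glycogen genes had 11 of 20 members higher and 3 lower, with a median of 0.37. Ppp1r3b, which targets protein phosphatase 1 to glycogen, was at 9.66, 14.2 and 10.7 CPM in the vehicle libraries and 57.7, 53.6 and 72.97 CPM in the FSK3D libraries (2.42 ± 0.18, adjusted p = 1.58e-07). Glycogen synthase Gys1 (1.61 ± 0.055), the branching enzyme Gbe1 (1.56 ± 0.078) and liver-type phosphorylase Pygl (1.71 ± 0.18) rose. Pygl was a low gene, at 2.76 ± 0.204 CPM in vehicle and 8.96 ± 1.18 in FSK3D. The phosphorylase kinase subunit Phka2 fell (-0.18 ± 0.047), and the brain-type phosphorylase Pygb, at 138 ± 1.81 CPM in vehicle and 143 ± 4.64 in FSK3D, did not pass the test (0.05 ± 0.049, adjusted p = 0.41). Pygb was named outside the rule for named genes, after its values were seen.

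**Figure D3:**
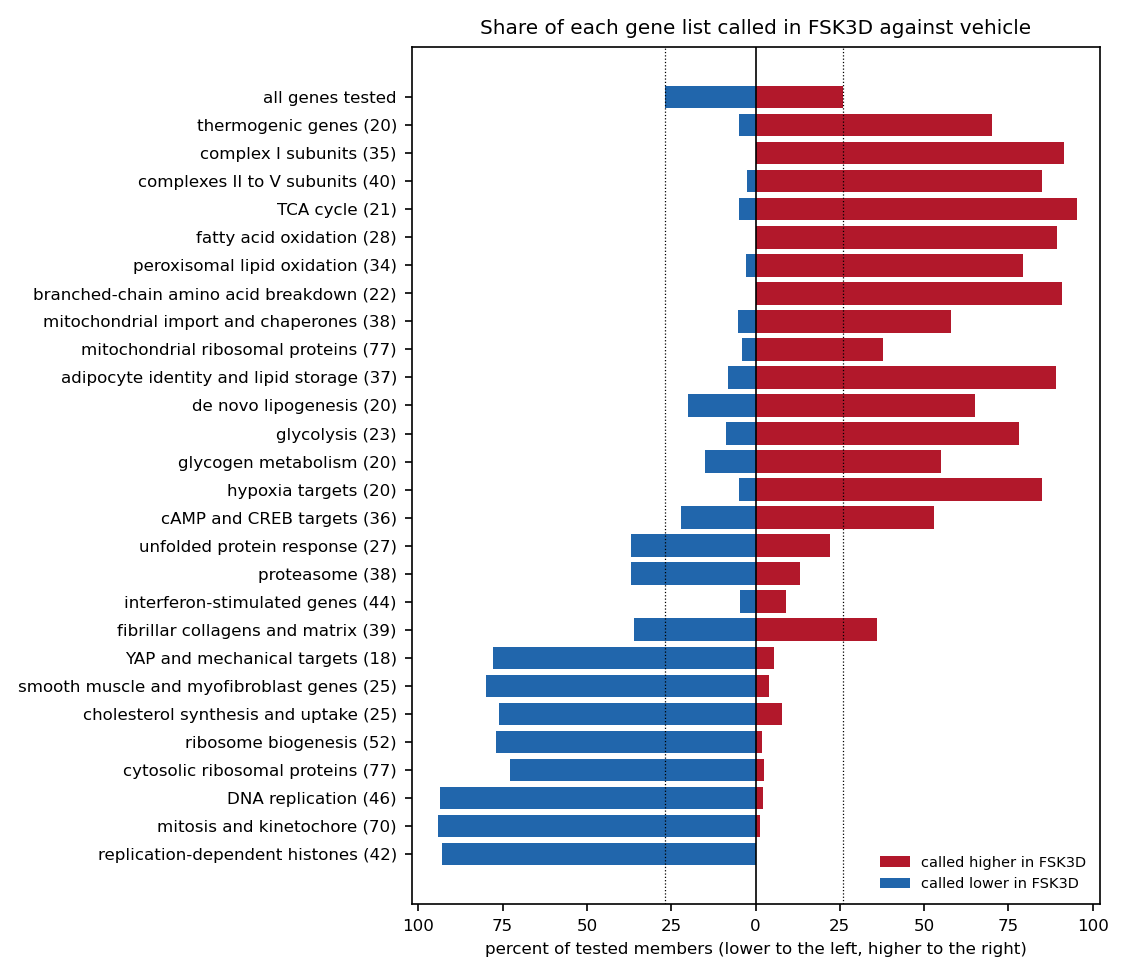
For all genes tested and for 27 lists, bars show the percent of tested members called higher (red, to the right) and called lower (blue, to the left) in FSK3D against vehicle, with the number tested in parentheses and dotted lines at the shares of all genes. Mitochondrial and fuel oxidation lists extend to the right and cell cycle, histone and ribosome lists to the left, beyond the 25.9% and 27.0% of all genes.

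Of cAMP and CREB targets 19 of 36 tested members rose and 8 fell, with a median log2 fold change of 0.49. Phosphodiesterases, which break down cAMP, were prominent among the rises, with Pde10a (1.80 ± 0.11), Pde7b (1.79 ± 0.15), Pde4b (1.78 ± 0.073) and Pde3b (1.47 ± 0.093). Pde4b was at 28.98, 24.6 and 28.1 CPM in the vehicle libraries and 95.6, 95.5 and 90.4 CPM in the FSK3D libraries. Pck1, the gluconeogenic and glyceroneogenic enzyme, rose by 1.75 ± 0.075. The orphan nuclear receptor Nr4a1, an immediate target of CREB, was at 13.4, 10.6 and 10.4 CPM in the vehicle libraries and 23.4, 24.9 and 25.8 CPM in the FSK3D libraries (1.10 ± 0.094, adjusted p = 9.99e-11), against 149 ± 6.54 CPM at 4 h and 84.3 ± 9.53 CPM at 1 day (direct log2 differences -2.59 ± 0.083, adjusted p = 1.82e-20 and -1.77 ± 0.083, adjusted p = 3.35e-16). Egr1, another immediate early factor, fell from 26.9 ± 2.81 to 9.36 ± 0.814 CPM (-1.51 ± 0.093, adjusted p = 1.8e-15) and the neurotrophin Bdnf by 1.16 ± 0.11 on the log2 scale. Of the whole immediate early list 3 of 26 members rose and 14 fell.

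Components of the pathway itself had 10 of 38 members higher and 14 lower, a median of 0.01. Of all genes tested 25.9% were higher and 27.0% lower, so the share of rises was near that of all genes. The regulatory subunit of protein kinase A that fat cells use, Prkar2b, was at 331, 370.5 and 375 CPM in the vehicle libraries and 877, 929 and 878 CPM in the FSK3D libraries (1.32 ± 0.063, adjusted p = 1.62e-14). The adenylyl cyclase Adcy3 (1.47 ± 0.068) and the beta-1 adrenergic receptor Adrb1 (1.68 ± 0.45) rose, and the cyclase Adcy1 (-1.66 ± 0.20) fell. Phosphodiesterase Pde2a (-0.91 ± 0.054) and the kinase anchor Akap12 (-0.98 ± 0.055) also fell. The catalytic subunits Prkaca (0.13) and Prkacb (0.02) and Creb1 (0.14) did not pass the test.

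Cell division genes were lower in FSK3D nearly without exception. In mitosis and kinetochore genes 1 of 70 tested members rose and 66 fell, with a median log2 fold change of -0.78, and all but Pttg1 (0.47 ± 0.11) of the called members were lower. In DNA replication 1 of 46 tested members rose and 43 fell, with a median log2 fold change of -0.72. Of the replication-dependent histones 39 of 42 fell and none rose in edgeR, with a median of -0.77. Kif23, a kinesin of cytokinesis, was at 43.8, 38.9 and 42.8 CPM in the vehicle libraries and 14.4, 14.1 and 14.1 CPM in the FSK3D libraries (-1.56 ± 0.079, adjusted p = 1.11e-17). Espl1, the protease that separates sister chromatids, was at 72.6, 62.4 and 61.7 CPM in the vehicle libraries and 29.3, 28.4 and 26.1 CPM in the FSK3D libraries (-1.24 ± 0.073, adjusted p = 6.59e-16), and Mcm5, a subunit of the replicative helicase, at 203, 195 and 199 CPM in the vehicle libraries and 87.2, 98.2 and 95.4 CPM in the FSK3D libraries (-1.09 ± 0.052, adjusted p = 2.21e-18). Mcm10 (-1.34 ± 0.096), Melk (-1.34 ± 0.084) and Mybl2 (-1.31 ± 0.13), a factor that activates mitotic genes, fell too. Summed over the 70 mitosis genes, the level was 4975 to 5268 CPM in vehicle and 3037 to 3231 CPM in FSK3D.

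Regulators of the cycle went both ways, with 10 of 29 members higher and 13 lower, beside 25.9% and 27.0% of all genes tested. Beside Ccnd1, the factors E2f8 (-1.29 ± 0.11), E2f7 (-0.96 ± 0.074) and Trp53 (-1.08 ± 0.089) fell. The retinoblastoma gene Rb1 (0.69 ± 0.056), the kinase inhibitor Cdkn1a (0.52 ± 0.046), Ccng2 (0.97 ± 0.069) and E2f2 (1.17 ± 0.12) rose.

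The promoters of Kif23, Espl1 and Mcm5 show letters typical of such genes. The CHR element TTTGAA, which recruits the DREAM and MYBL2 complexes to mitotic promoters, stood in 67.3% of 55 mitosis promoters against 12.2% of all tested genes, and CCAAT in 69.1% against 39.00%. The E2F letters TTTGGCGC stood in 19.4% of 31 replication promoters against 1.02%, and TTTCCCGC in 16.1% against 2.07%. In Kif23 (chr9:61946750-61947049, minus strand) and Espl1 (chr15:102296043-102296342, plus strand) the CCAAT box, as its reverse complement ATTGG, and the CHR are in capitals. In Mcm5 (chr8:75109259-75109558, plus strand) the capitals mark the E2F letters as GCGCCAAA and the CCAAT boxes (all GRCm38.p6). The Mcm5 promoter also holds the full cAMP response element TGACGTCA, left here in lower case, although Mcm5 fell.
Kif23: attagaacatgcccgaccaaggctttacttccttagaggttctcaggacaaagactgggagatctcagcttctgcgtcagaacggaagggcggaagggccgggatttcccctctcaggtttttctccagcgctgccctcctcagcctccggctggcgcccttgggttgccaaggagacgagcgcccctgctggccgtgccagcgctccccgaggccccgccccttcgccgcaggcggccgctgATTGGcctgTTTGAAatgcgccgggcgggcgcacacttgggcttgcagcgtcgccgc
Espl1: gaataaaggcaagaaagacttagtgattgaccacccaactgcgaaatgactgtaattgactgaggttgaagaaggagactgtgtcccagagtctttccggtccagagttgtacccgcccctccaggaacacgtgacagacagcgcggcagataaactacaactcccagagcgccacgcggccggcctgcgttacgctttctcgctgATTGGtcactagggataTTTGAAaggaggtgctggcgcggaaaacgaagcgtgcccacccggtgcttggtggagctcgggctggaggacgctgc
Mcm5: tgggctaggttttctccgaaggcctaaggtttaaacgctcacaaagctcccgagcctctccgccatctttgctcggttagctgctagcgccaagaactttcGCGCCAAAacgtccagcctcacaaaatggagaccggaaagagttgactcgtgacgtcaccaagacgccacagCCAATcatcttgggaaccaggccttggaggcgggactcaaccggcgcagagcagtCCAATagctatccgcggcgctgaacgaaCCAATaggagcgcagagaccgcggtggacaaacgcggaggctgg
Counted from the start, the CCAAT box and the CHR began at -7 and 2 in Kif23 and at -44 and -27 in Espl1.

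Genes for making proteins were lower by small amounts. Of cytosolic ribosomal proteins 2 of 77 tested members rose and 56 fell, with a median log2 fold change of -0.31, and of ribosome biogenesis genes 1 of 52 tested members rose and 40 fell, with a median log2 fold change of -0.41. No member of either list reached 2-fold. Rps2 was at 287, 287 and 279 CPM in the vehicle libraries and 175, 159 and 179 CPM in the FSK3D libraries (-0.73 ± 0.044, adjusted p = 1.02e-15). Nop56 (-0.86 ± 0.055), whose exons overlap those of Idh3b, and fibrillarin Fbl (-0.87 ± 0.14), which act in processing of ribosomal RNA, fell. The share of its precursor was lower in FSK3D, as given above, in libraries that had been depleted of ribosomal RNA, and its part in these counts was not tested. The proteasome had 5 of 38 members higher and 14 lower, beside 25.9% and 27.0% of all genes tested.

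Stress response lists held both rises and falls. In the unfolded protein response 6 of 27 rose and 10 fell, with a median of -0.05, beside 25.9% and 27.0% of all genes tested. The factor Xbp1 was at 78.9, 85.1 and 82.8 CPM in the vehicle libraries and 158, 167 and 164 CPM in the FSK3D libraries (0.99 ± 0.047, adjusted p = 2.18e-18) and Dnajb9 rose by 1.04 ± 0.053, while the chaperones Hyou1 (-0.30 ± 0.046) and Pdia3 (-0.32 ± 0.046) fell and Hspa5 did not pass the test (0.02). Among ATF4 targets and tRNA synthetases 17 of 33 tested members rose and 8 fell, with a median log2 fold change of 0.22. The share of rises in this list was above that of all genes. Trib3 (1.90 ± 0.092), a pseudokinase induced by stress, and the cystine carrier Slc7a11 (1.80 ± 0.10) rose, and Phgdh, the first enzyme of serine synthesis, fell by 0.80 ± 0.063 on the log2 scale.

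Contractile and mechanosensitive genes were mostly lower. In the smooth muscle and myofibroblast list 1 of 25 tested members rose and 20 fell, with a median log2 fold change of -0.80. The smooth muscle actin Actg2 was at 1.42, 0.328 and 0.734 CPM in the vehicle libraries and 0.0816, 0 and 0.0636 CPM in the FSK3D libraries (-3.79 ± 0.80, adjusted p = 0.000139), Tagln, an actin-binding protein that shares exons with Pcsk7, at 31.7, 35.1 and 35.95 CPM in the vehicle libraries and 6.57, 6.72 and 5.41 CPM in the FSK3D libraries (-2.48 ± 0.11, adjusted p = 3.68e-19), and the myosin light chain Myl9 at 36.8, 35.6 and 37.7 CPM in the vehicle libraries and 8.97, 7.13 and 7.28 CPM in the FSK3D libraries (-2.23 ± 0.099, adjusted p = 4.62e-19). Tagln was at 3.61 ± 0.469 CPM at 1 day, with a direct log2 difference of 0.77 ± 0.14, adjusted p = 1.17e-05. Myocd, the coactivator of smooth muscle genes, had 73 counts over vehicle and 4 over FSK3D (ratio 0.07, interval 0.00828 to 0.276). Desmin (Des), the intermediate filament of muscle, was the exception, at 3.33, 4.89 and 3.49 CPM in the vehicle libraries and 13.1, 12.95 and 15.8 CPM in the FSK3D libraries (1.85 ± 0.16, adjusted p = 1.18e-11). Of targets of the mechanosensitive coactivator YAP 1 of 18 tested members rose and 14 fell, with a median log2 fold change of -0.67. Ankrd1 was at 36.7, 30.2 and 28.2 CPM in the vehicle libraries and 4.73, 7.81 and 7.82 CPM in the FSK3D libraries (-2.23 ± 0.14, adjusted p = 2.21e-13), and the matricellular protein Ctgf (-1.38 ± 0.13) fell.

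The Myl9 promoter is shown for its CArG box, the site of serum response factor (GRCm38.p6, chr2:156775214-156775513, plus strand, box in capitals). The CArG box stood in 22.2% of 18 promoters of the list, against 1.40% of all tested genes.
Myl9: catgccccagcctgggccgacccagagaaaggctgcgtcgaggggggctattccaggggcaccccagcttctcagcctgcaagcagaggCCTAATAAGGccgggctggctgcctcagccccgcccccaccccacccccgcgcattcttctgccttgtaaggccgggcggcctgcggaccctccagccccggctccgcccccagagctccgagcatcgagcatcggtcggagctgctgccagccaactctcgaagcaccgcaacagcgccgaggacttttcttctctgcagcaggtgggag

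Matrix genes moved both ways. Of fibrillar collagens and other matrix genes 14 of 39 rose and 14 fell, beside 25.9% and 27.0% of all genes tested. Versican (Vcan), a large proteoglycan, was at 463, 447 and 488 CPM in the vehicle libraries and 2132, 2052 and 1969 CPM in the FSK3D libraries (2.14 ± 0.066, adjusted p = 2.35e-17). Col15a1 (1.81 ± 0.12) rose. Thrombospondin 1 (Thbs1) was at 2665, 2307 and 2416 CPM in the vehicle libraries and 815, 776 and 816 CPM in the FSK3D libraries (-1.62 ± 0.087, adjusted p = 7.4e-10), and Col8a1 (-1.72 ± 0.069) and tenascin C, Tnc (-1.49 ± 0.13) fell. Col1a1 (-0.09), Fn1 (0.11) and Sparc (-0.01) did not pass the test. In basement membranes 7 of 22 rose and 8 fell, beside the same shares of all genes. Among them were Col18a1 (1.21 ± 0.092) and Lama5 (-1.33 ± 0.083). Of matrix proteases and inhibitors 11 of 31 tested members rose and 13 fell, beside those shares of all genes. Their median log2 fold change was -0.15. The collagenase Mmp13 (3.01 ± 0.32) rose, and the membrane-type protease Mmp16 (-1.39 ± 0.31) fell.

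Progenitor and fibroblast markers had 7 of 25 members higher and 9 lower, beside 25.9% and 27.0% of all genes tested. Their summed level was 4316 to 4587 CPM in vehicle and 2945 to 3116 CPM in FSK3D. Most of that difference came from vimentin alone. The stem cell antigen Ly6a (1.03 ± 0.17) and Pdgfra (0.34 ± 0.043) rose. Vimentin (Vim) was at 2106, 2006 and 2112 CPM in the vehicle libraries and 993, 956 and 1046 CPM in the FSK3D libraries (-1.05 ± 0.046, adjusted p = 3.05e-19), and Pdgfrb (-0.72 ± 0.056), Cd44 (-1.01 ± 0.055) and Sfrp2 (-1.91 ± 0.15), a secreted modulator of Wnt signalling, fell. In the list of Wnt, BMP and TGF-beta ligands and antagonists 7 of 41 tested members rose and 17 fell, with a median log2 fold change of -0.50. Besides Rspo2 and Sfrp2, the ligand Wnt16 (-1.75 ± 0.23) fell, and the BMP antagonists Chrd (1.53 ± 0.21) and Chrdl1 (1.00 ± 0.095) rose.

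Secreted factors gave 19 rises and 17 falls in 50 tested genes, beside 25.9% and 27.0% of all genes tested. The retinol carrier Rbp4 was at 2.90, 3.84 and 4.73 CPM in the vehicle libraries and 15.8, 17.6 and 19.8 CPM in the FSK3D libraries (2.23 ± 0.15, adjusted p = 8.06e-14), and the neuregulin Nrg4, a product of brown fat that shares exons with Fbxo22, rose from 11.5 ± 0.883 to 46.1 ± 1.85 CPM (2.00 ± 0.10, adjusted p = 6.71e-16). Hepatocyte growth factor, Hgf, rose by 1.58 ± 0.11. Endothelin 1 (Edn1) had 106 counts over vehicle and 10 over FSK3D (ratio 0.121, interval 0.0376 to 0.299).

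Inflammatory genes moved both ways, 12 up and 13 down of 34, beside 25.9% and 27.0% of all genes tested. The chemokine Cxcl12 was at 442, 389.7 and 392 CPM in the vehicle libraries and 113, 114 and 105 CPM in the FSK3D libraries (-1.89 ± 0.080, adjusted p = 8.75e-13). Cxcl5, a chemokine for neutrophils, had 2 counts over vehicle and 74 over FSK3D (ratio 47.3, interval 7.97 to 1917), and Il6 had 19 and 79 (ratio 5.31, interval 2.51 to 11.5). Of interferon-stimulated genes 4 of 44 rose and 2 fell, under the shares of all genes. Their summed level was uneven among libraries of 1 group, at 2193, 1709 and 1790 CPM in vehicle S1 to S3 and 2090, 2429 and 1709 CPM in FSK3D S10 to S12. Ifit2 was at 91.8, 73.8 and 83.8 CPM in the vehicle libraries and 32.3, 30.2 and 19.9 CPM in the FSK3D libraries (-1.62 ± 0.17, adjusted p = 8.2e-06).

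Nuclear receptors and adipocyte factors, taken as 1 list, showed 25 rises and 14 falls in 52 tested genes, beside 25.9% and 27.0% of all genes tested. The vitamin D receptor (Vdr) was at 21.3, 17.5 and 21.1 CPM in the vehicle libraries and 105, 101.9 and 97.6 CPM in the FSK3D libraries (2.35 ± 0.092, adjusted p = 3.63e-14). Vdr was higher at 4 h (176 ± 22.1 CPM) and lower in Rosi3D (8.23 ± 0.742 CPM), with direct log2 differences of -0.80 ± 0.081, adjusted p = 3.66e-08 and 3.61 ± 0.10, adjusted p = 2.09e-16. Zfp516, a partner of Prdm16 (0.99 ± 0.051), and the oxysterol receptor Nr1h3 (0.81 ± 0.092) rose, and Klf5 (-1.41 ± 0.34) and Mecom (-0.98 ± 0.070) fell. Of circadian genes 12 of 23 tested members rose and 4 fell, beside 25.9% and 27.0% of all genes tested. Their median log2 fold change was 0.18. Npas2 (1.91 ± 0.26) rose, while Arntl (0.15) did not pass the test. In insulin and IGF signalling 15 rose and 15 fell of 43, beside 25.9% and 27.0% of all genes tested. The insulin receptor Insr (0.88 ± 0.047) and the glucose carrier Slc2a4 (0.71 ± 0.14) were higher. The IGF1 receptor Igf1r (-0.80 ± 0.079) and Akt1 (-0.62 ± 0.045) were lower.

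FSK3D was also compared directly with FSK1D and Rosi3D. Against FSK1D, 3639 genes (25.2%) were higher and 3719 (25.8%) lower in FSK3D. Thermogenic genes counted 17 of 20 higher and 0 lower, complex I 33 of 35 higher and 0 lower, the TCA cycle 21 of 21 higher and 0 lower and branched-chain breakdown 20 of 22 higher and 0 lower. Mitosis genes counted 1 of 70 higher and 69 lower and histones 0 of 42 higher and 42 lower. Glycolysis counted 4 of 23 higher and 12 lower. For these lists, each direction with 0 calls in edgeR also had 0 members at an unadjusted p under 0.05.

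Against Rosi3D, 3238 genes (22.5%) were higher and 2978 (20.7%) lower in FSK3D. Thermogenic genes counted 2 of 20 higher and 14 lower, complex I 0 of 35 higher and 35 lower, fatty acid oxidation 1 of 28 higher and 25 lower and cholesterol synthesis 0 of 25 higher and 23 lower. Higher in FSK3D than in Rosi3D were most members of the glycolysis (16 of 23 higher and 0 lower), hypoxia (15 of 20 higher and 2 lower), mitosis (60 of 70 higher and 0 lower) and inflammatory lists (23 of 34 higher and 3 lower). Here too the directions with 0 calls in edgeR had 0 members at an unadjusted p under 0.05. Mitosis genes were mostly below vehicle in both groups. Their median log2 fold change against vehicle was -0.78 in FSK3D and -1.28 in Rosi3D. Fabp4, a fatty acid carrier under PPARγ control, was at 1054 ± 29.7 CPM in FSK3D and 3140.0 ± 391 CPM in Rosi3D (direct log2 difference -1.57 ± 0.12, adjusted p = 6.29e-07), and Kif23 at 14.2 ± 0.158 and 14.3 ± 1.49 CPM (0.00 ± 0.084, adjusted p = 0.989).

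**Figure D4:**
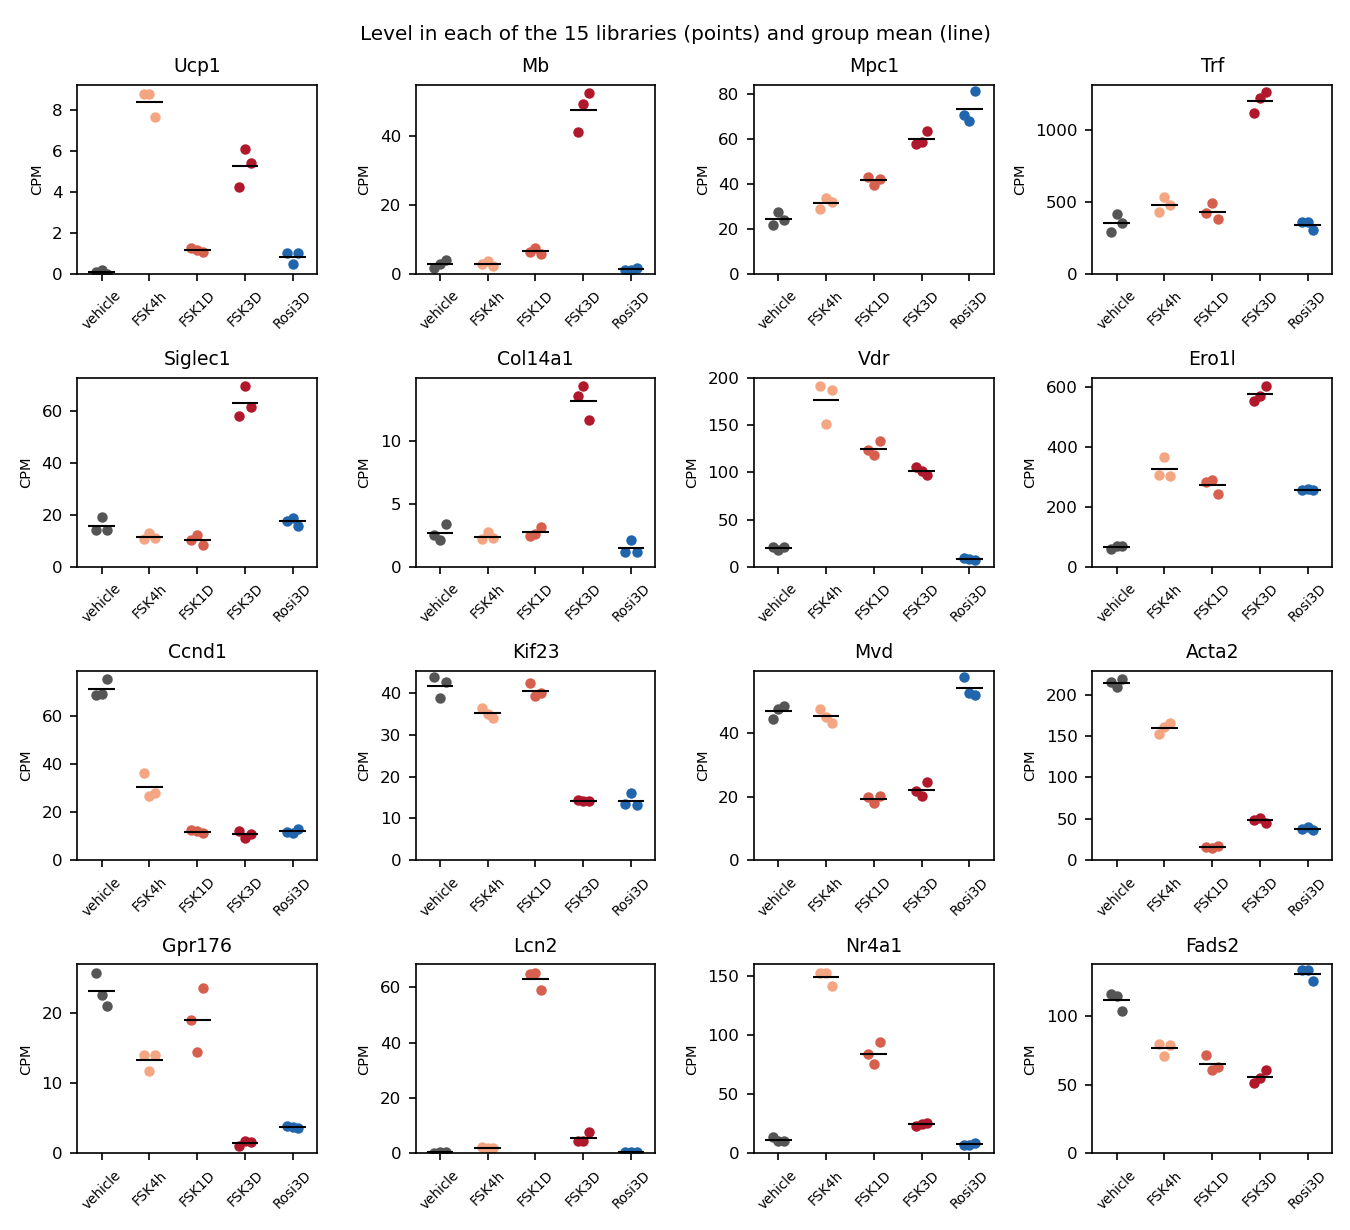
Each panel shows 1 gene, with CPM on the y axis from 0, the 5 groups on the x axis, points for the 3 libraries of each group and a line at the group mean. Mb, Trf, Siglec1, Col14a1 and Ero1l are highest in FSK3D and Gpr176 lowest, while Ucp1, Vdr and Nr4a1 are highest at 4 h and Lcn2 at 1 day.

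Some genes stood above all 4 other groups in FSK3D, each in a direct test. There were 462 of them, 3.20% of genes tested, and 379 (2.63%) stood below all 4. Besides Mb and Des, transferrin (Trf, chromosome 9, 103204001 to 103230444, minus strand), the iron carrier of plasma, was at 1118, 1220.5 and 1267 CPM in the FSK3D libraries and 292, 414 and 352 CPM in vehicle, 479 ± 51.2 CPM in FSK4h, 430.2 ± 54.5 in FSK1D and 339 ± 33.2 in Rosi3D (1.77 ± 0.14, adjusted p = 8.69e-07 against vehicle). Siglec1 (chromosome 2, 131069220 to 131086765, minus strand), a sialic acid-binding lectin best known from macrophages, was at 14.04, 19.04 and 14.2 CPM in the vehicle libraries and 58.3, 69.8 and 61.7 CPM in the FSK3D libraries (2.00 ± 0.12, adjusted p = 1.63e-11), and between 10.3 ± 2.08 and 17.5 ± 1.52 CPM in the other groups. Acp5, an acid phosphatase of osteoclasts and macrophages, was at 4.57, 6.53 and 4.59 CPM in the vehicle libraries and 16.2, 18.02 and 18.1 CPM in the FSK3D libraries (1.74 ± 0.15, adjusted p = 5.67e-12). The macrophage markers Ptprc and Adgre1 had 0 counts in FSK3D, as given above, while Csf1r rose from 0.805 ± 0.136 to 1.66 ± 0.247 CPM (1.02 ± 0.30), and its part in the levels of Siglec1 and Acp5 was not tested.

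Collagen XIV (Col14a1) was at 2.53, 2.10 and 3.38 CPM in the vehicle libraries and 13.5, 14.3 and 11.6 CPM in the FSK3D libraries (2.30 ± 0.18, adjusted p = 1.35e-12). The fibroblast membrane protein Lrrc15 (1.62 ± 0.26), apolipoprotein Apoc1 (1.39 ± 0.084), the kinase Dapk1 (1.33 ± 0.13) and the adhesion protein Opcml (1.38 ± 0.17) completed the 10 with the widest margin. Their levels in FSK4h, FSK1D and Rosi3D ranged from 1.19 ± 0.382 CPM (Lrrc15 in Rosi3D) to 19.2 ± 1.82 CPM (Apoc1 in Rosi3D).

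Below all 4 groups, and besides Gpr176 and Dusp9, ceruloplasmin (Cp), a copper ferroxidase whose exons overlap those of Hps3, was at 85.6, 84.4 and 86.5 CPM in the vehicle libraries and 26.1, 28.6 and 30.8 CPM in the FSK3D libraries (-1.58 ± 0.064, adjusted p = 4.11e-20). Its Rosi3D level of 53.2 ± 2.41 CPM was the nearest to FSK3D (direct log2 difference -0.90 ± 0.065, adjusted p = 1.16e-13). Wwc1, a scaffold of the Hippo pathway also known as KIBRA, was at 21.9, 19.8 and 19.00 CPM in the vehicle libraries and 4.201, 3.22 and 4.68 CPM in the FSK3D libraries (-2.28 ± 0.12, adjusted p = 2.81e-17), and Sprr1a, a protein of cornified envelopes, at 12.7, 10.7 and 13.02 CPM in the vehicle libraries and 3.997, 3.50 and 4.58 CPM in the FSK3D libraries (-1.56 ± 0.14, adjusted p = 3.07e-11). The vasopressin receptor Avpr1a (-1.95 ± 0.19), the fibrinogen-like Fgl2 (-1.37 ± 0.13), Aif1l (-1.49 ± 0.18), Pxdc1 (-1.64 ± 0.18) and Tmem182, a membrane protein of muscle and fat (-2.60 ± 0.26), were the others.

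**Figure D5:**
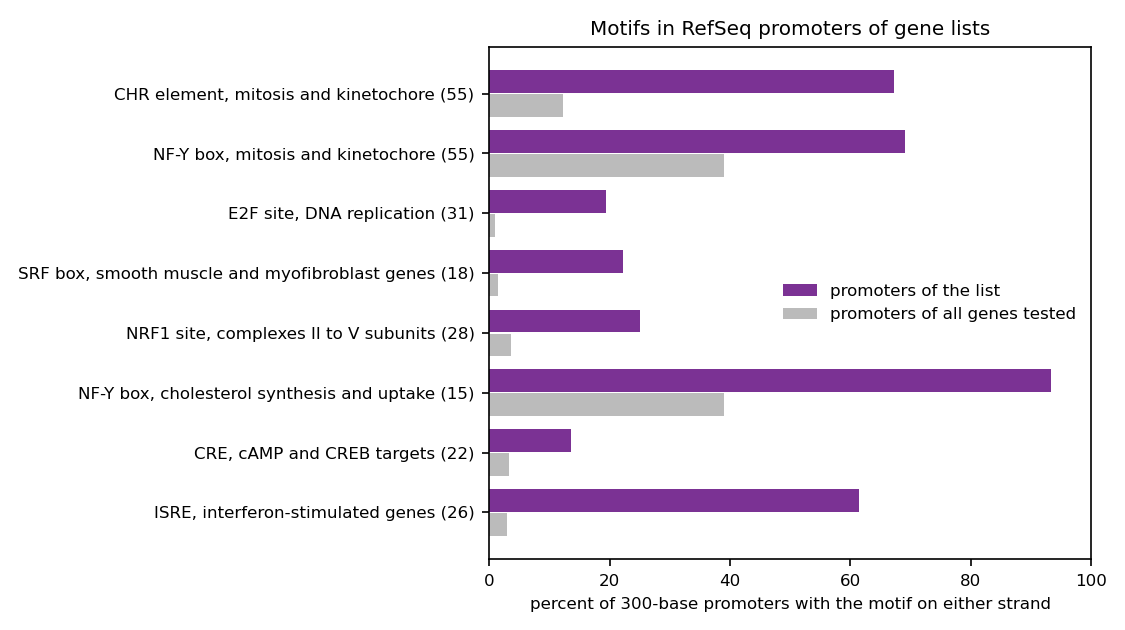
Bars show the percent of RefSeq promoters (GRCm38.p6, x axis) that hold a motif on either strand, for the promoters of a list (purple, number in parentheses) and of all 8619 tested genes with 1 start (grey). The NF-Y box is the CCAAT letters and the SRF box the CArG box; the mitosis list stands at 67.3% for the CHR element and the cholesterol list at 93.3% for the NF-Y box.

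Over all called genes the cAMP response element was not much more frequent than over all tested genes. Its letters TGACGTCA stood in 3.99% of 2204 promoters of genes called higher, 2.96% of 2333 called lower and 3.25% of all. Among genes at least 2-fold higher it stood in 2.02% of 346, and among the cAMP and CREB targets in 13.6% of 22. The ISRE, the site of interferon-regulated factors, stood in 61.5% of 26 promoters of interferon-stimulated genes, a list with few calls, against 3.04% of all. The pairs of motif and list shown were chosen with their shares known.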

How the data were processed

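The authors' deposited table holds whole-number counts per gene for 15 libraries of total RNA, extracted with TRIzol and depleted of rRNA per the labels. Per the submitters' processing notes fastp, STAR and featureCounts were used with GRCm38 (mm10). The sources used here do not give versions, annotation, strand or read pair handling, so overlapping or near-identical genes are uncertain. Low counts were mostly even, as when both mates of a pair are counted, so intervals of low-count ratios used halved counts.

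Column names hold the group and a library number that runs through the series. Genes were filtered with filterByExpr (14421 kept, 4584 had no count), scaled by TMM and tested in R 4.3.3 with edgeR 4.0.16 (robust quasi-likelihood F test, all 15 libraries, 1 mean per group, 10 residual degrees of freedom, two-sided, Benjamini-Hochberg). The common biological coefficient of variation was 5.97%. Log2 fold changes are ± SE, levels CPM ± SD (n = 3). The test was tried on simulated data. Coordinates are GENCODE vM21 (GRCm38), matched by 96.2% of tested symbols. Promoters of single-start genes are RefSeq's.

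Genes were named by rule: the 15 largest rises and falls of protein-coding genes with at least 5 CPM and groups not overlapping, up to 4 rises and 4 falls for each of 52 lists and list-defining members, and the 10 with the widest margin above and below all other groups. Members and lists were chosen with earlier results of these data known. Alternatives were other scaling, filters, halved or thinned counts, 6 libraries alone, DESeq2 1.42.0 and leaving out each library. Some genes that the rule covers are not reported here.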

Additional observations from a re-analysis of the deposited data

Results flagged for a closer look

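Genes named for size or place were singled out where FSK3D and another treated group were called in opposite directions against vehicle and the direct difference between the 2 treated groups was called too. The log2 differences are FSK3D minus the other group, in edgeR's quasi-likelihood fit, with values against vehicle in both groups. The vehicle libraries are shared by those values. No explanation was tested.

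Opposite to Rosi3D stood Tmem182 (-5.62 ± 0.22), with -2.60 ± 0.26 against vehicle in FSK3D and 3.02 ± 0.16 in Rosi3D. Mb differed by 5.28 ± 0.23 (4.15 ± 0.20 and -1.13 ± 0.28), Col14a1 by 3.20 ± 0.20 (2.30 ± 0.18 and -0.90 ± 0.22), Acp5 by 2.64 ± 0.16 (1.74 ± 0.15 and -0.90 ± 0.17), Lrrc15 by 2.31 ± 0.27 (1.62 ± 0.26 and -0.69 ± 0.29) and Opcml by 2.31 ± 0.18 (1.38 ± 0.17 and -0.93 ± 0.19). Aif1l, lower in FSK3D than in vehicle (-1.49 ± 0.18), was higher than vehicle in each other treated group, with differences of -1.94 ± 0.17 from FSK4h, -2.01 ± 0.17 from FSK1D and -2.06 ± 0.17 from Rosi3D.

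Opposite to FSK4h stood Fgl2, whose level was 82.7 ± 6.29 CPM at 4 h and 3.69 ± 0.388 CPM at 3 days (-4.50 ± 0.11, with 3.14 ± 0.097 and -1.37 ± 0.13 against vehicle). Dusp9 (-3.86 ± 0.21), Atp1b1 (-2.91 ± 0.18), Pxdc1 (-2.90 ± 0.17), Lrp8 (-2.67 ± 0.10) and Wwc1 (-2.54 ± 0.12) were also above vehicle at 4 h and below it at 3 days. Siglec1 was below vehicle at 4 h and 1 day and above it at 3 days (2.45 ± 0.13 from FSK4h and 2.61 ± 0.13 from FSK1D). Opposite to FSK1D stood Dapk1 (2.10 ± 0.14) and Apoc1 (1.71 ± 0.087), which were below vehicle at 1 day.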

How the results depend on the processing

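No paired analysis was possible because the columns carry a running library number, not the replicate number of the labels. The counts of genes higher (3467 to 3931) and lower (3355 to 4012) than vehicle, at least 2-fold higher (558 to 692) or lower (451 to 586), and above (394 to 515) or below (284 to 446) all 4 other groups stayed within 1.5 times the reported counts under every alternative run. The last 2 have no value with only the 6 libraries of both groups. Library size alone moved the median of all genes by -0.014 on the log2 scale and the share of higher calls from 49.0% to 47.3%. DESeq2 called 3750 genes higher and 3736 lower.

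No gene that was both named and called reversed its sign. Signs of genes not called were not counted, and genes that an alternative's filter removed were left out of its counts. Between 2 and 21 of the 366 genes the naming rule covered lost their call under an alternative, the most (21) without FSK3D S10. Antigen presentation genes, with 5 called higher, had 3 without vehicle S2 and 2 without vehicle S3 or FSK3D S11. Interferon-stimulated genes, with 4 higher and 2 lower, had 13 and 14 with no filter on low counts, the cause of which was not tested. The shallowest library, FSK3D S11, and the few counts of genes such as Lep, Myocd and Cxcl5 limit the precision of those ratios.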

Other observations

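Antioxidant genes rose more often than they fell in FSK3D, with 13 of 36 tested members higher and 4 lower. Of all genes tested 25.9% were higher and 27.0% lower. The median log2 fold change of the antioxidant list was 0.11. Prdx3, a mitochondrial peroxiredoxin (0.90 ± 0.055), rose. Cytosolic glutathione peroxidase Gpx1 (-0.86 ± 0.069) and thioredoxin reductase Txnrd1 (-0.56 ± 0.043) fell. Lysosome and autophagy genes were split, with 20 of 57 higher and 18 lower, beside 25.9% and 27.0% of all genes tested. Beside the mitophagy receptors Bnip3 and Bnip3l (0.78 ± 0.062), cathepsin H, Ctsh, rose (0.77 ± 0.11), while the lysosomal hydrolases Gusb (-0.52 ± 0.064), Hexa (-0.51 ± 0.051) and Ctsa (-0.55 ± 0.043) fell.

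Creatine and calcium cycling, routes of heat production that do not need Ucp1, had 5 of 13 tested members higher and 3 lower. Of all genes tested 25.9% were higher and 27.0% lower. The calcium pump Atp2a3 was at 4.54, 6.66 and 5.76 CPM in the vehicle libraries and 28.02, 25.3 and 32.6 CPM in the FSK3D libraries (2.36 ± 0.13, adjusted p = 9.89e-14 in edgeR), and the phosphatase Alpl, which acts in the creatine cycle, at 47.8, 47.6 and 44.8 CPM in the vehicle libraries and 185, 197 and 192 CPM in the FSK3D libraries (2.03 ± 0.056, adjusted p = 2.97e-24 in edgeR). The calcium release channel Itpr3 (-1.31 ± 0.076), the creatine transporter Slc6a8 (-0.60 ± 0.055) and Gamt, of creatine synthesis (-0.84 ± 0.11), fell. Skeletal and cardiac muscle genes as a list had 3 higher and 3 lower of 16 tested, beside those shares of all genes.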
